A study of Saccharomyces cerevisiae with 6 samples.

Results

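A set of 39 yeast genes for transcription elongation, mRNA export and chromatin factors was followed in newly made RNA, with and without the RNA helicase gene *DBP2*. The genes were taken by systematic name from the count table: the THO complex, the export factors *YRA1* (YDR381W), *MEX67*, *MTR2* and *NAB2*, the RNA-binding protein gene *THO1* (YER063W), the FACT subunits, *SPT4*, *SPT5*, *SPT6*, *DST1* (YGL043W), the kinase genes *SGV1* and *CTK1*, the Paf1 complex, *SET1*, *SET2*, subunits of 3 histone deacetylase complexes, the HIR complex with *ASF1*, and the remodellers *ISW1* and *CHD1*. They were 39 of 7032 genes in the table. All 39 passed the filter on low counts, which 5943 genes passed.

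The labels and methods describe 2 strains of Saccharomyces cerevisiae with 3 libraries each. The wild-type strain was BY4741, MATa his3Δ1 leu2Δ0 met15Δ0 ura3Δ0, and the *dbp2Δ* strain was MATα with dbp2::KanR and ura3Δ0, leu2Δ0 and his3Δ0, carrying functional TRP1, MET and LYS genes. Both carried the empty vector pRS426 and grew in SD-URA with 2% glucose at 30 °C to an OD600 of 0.5, and both received 4-thiouracil at 0.32 mg/mL for 10 min. Labelled RNA was biotinylated, enriched and sequenced (transient-transcriptome sequencing, TT-seq), so that counts weight recently made RNA. The strains also differ in mating type and in marker genes, and a difference between them cannot be told apart from these. In cultures measured in bulk, fewer cells making an RNA and less of it per cell cannot be told apart either.

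The libraries held 11177517 to 13134963 gene counts (wild-type) and 6968216 to 8659542 (*dbp2Δ*). *DBP2* itself was counted 10976 to 11213 times in wild-type and 0 to 2 times in *dbp2Δ*, while *MET17* had 0 counts in all 3 wild-type libraries and at least 1505 in *dbp2Δ*, as the genotypes state (*MET17* is also named MET15). *LYS2* had 0 or 1 counts in wild-type and 4477 or more in *dbp2Δ*, although the genotype given for the wild-type strain names no lys2 allele, so the wild-type libraries go against that genotype at this gene. Wild-type replicate 3 stood apart within its strain: its correlation with the other wild-type libraries was 0.957 and 0.968, against 0.982 between those and 0.992 among the *dbp2Δ* libraries (log scale, across genes). Results that rest on this library are given with and without it.

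RNA polymerase II does not travel alone. Spt4-Spt5 and Spt6 ride with the polymerase, FACT and Spt6 take histones off and put them back, the Paf1 complex couples elongation to histone marks, and Set1, Set2 and the deacetylases that read their marks shape chromatin over transcribed genes. The THO complex binds the emerging RNA and helps load export factors, the receptor Mex67-Mtr2 carries the finished mRNA through the nuclear pore, and the HIR complex and Asf1 deliver histones. Dbp2 is a DEAD-box RNA helicase that acts on newly made RNA and is known to bind Yra1.

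The promoters of the genes called different between the strains are shown first, because the results turn on these 5 genes. Each sequence is 30 bases of the coding strand upstream of the start codon, 5′ to 3′, from the RefSeq R64 genome. Capitals mark a match to a motif: TTACCCG for Reb1, TATAAA for the TATA box, or the degenerate Abf1 motif, each searched on both strands of the 250 bases before the start codon.
THO1 (Reb1, V:281483-281512, plus strand): tatatattttaTTACCCGgcgtctctagcc
DST1 (Reb1, VII:417338-417367, plus strand): attttcaactcTTACCCGccccactgtgct
EAF3 (Abf1, XVI:610166-610195, minus strand): cgccacatATCGCATTTCACGaaagatgaa
RCO1 (TATA box, XIII:413929-413958, plus strand): catagaaaaaccTATAAAagacacttccat
SET1 (TATA box on the other strand, VIII:346004-346033, plus strand): atttgttgaatcTTTATAagaggtctctgc
The Reb1 motif was in 7 of the 39 promoters (17.9%) and in 7.03% of all 6007 promoters of that length. The 7 were those of *THP2*, *MEX67*, *THO1*, *SPT6*, *DST1*, *CTR9* and *RTF1*. The Abf1 motif was in 11 of 39 (28.2%) against 11.6% of all promoters, and TATAAA in 13 of 39 (33.3%) against 43.5%. In *MTR2* the Abf1 match and a TATAAA match overlap. *RCO1* has 3 TATAAA matches, and the one shown is that nearest the start codon, 35 bases before it. These are matches of letters and not measured binding.

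Between the strains, 5 of the 39 genes passed the edgeR quasi-likelihood test (p adjusted by Benjamini-Hochberg over all genes, threshold 0.05), a share of 12.8%. Of all genes tested, 42.0% were called. *THO1*, *DST1* and *EAF3* were lower in *dbp2Δ*, in a table in which 22.4% of genes were lower, and *RCO1* and *SET1* were higher, where 19.6% of genes were. Under upper quartile scaling 5 were higher and 3 lower, and with DESeq2 3 and 3. With 1 library left out, the number higher was 4 without wild-type replicate 1, 1 without wild-type replicate 2 or *dbp2Δ* replicate 3, and 0 without *dbp2Δ* replicate 1 or 2, and the number lower was 10 without wild-type replicate 3 and otherwise 2 to 4. The number called among all genes moved as well. It was 2497 in the main fit, 2587 with DESeq2 and 1430 to 3082 with 1 library left out. The 3082, or 51.8% of genes tested, were without wild-type replicate 3. The median log2 fold change (*dbp2Δ* minus wild-type) of the 39 genes was -0.06, beside -0.02 for all genes. Their median size of change, without sign, was 0.20 on the log2 scale beside 0.41 for all genes. A log2 change larger than 0.5 in either direction was seen for 3 of the 39 (7.69%) and for 41.7% of all genes, and none of the 39 exceeded 1, as 891 genes of the table did. The 3 libraries of one strain lay wholly above or below those of the other for 13 of the 39, beside 55.6% of all genes. Fold changes with their errors are plotted for the whole set.

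**Figure D1:**
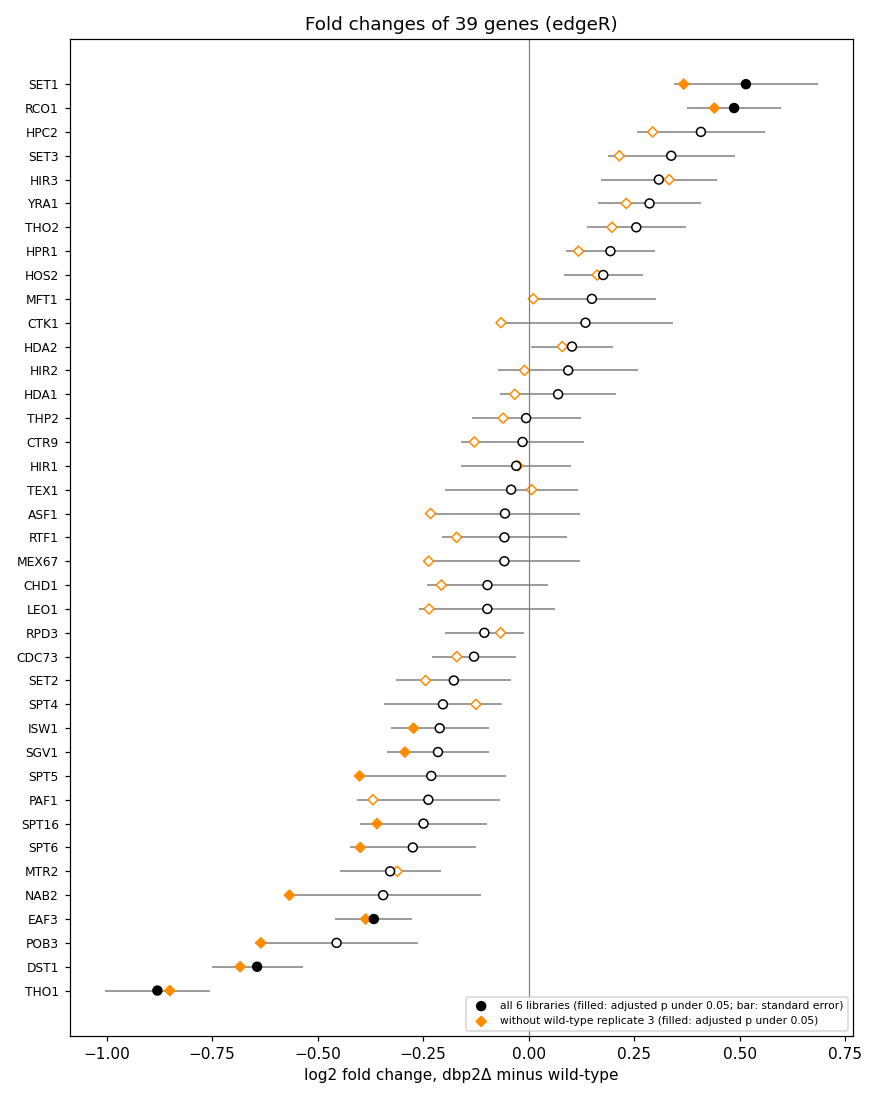
Log2 fold change (*dbp2Δ* minus wild-type) of each of the 39 genes, sorted, from edgeR with all 6 libraries (circles, bars are the standard error) and without wild-type replicate 3 (diamonds). Filled symbols passed an adjusted p of 0.05, which 5 genes did with all libraries and 12 without that replicate, and the values run from -0.88 for *THO1* to 0.51 for *SET1*.

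*THO1* had the largest difference of the set. Its protein binds nucleic acid through a SAP domain and was found as a suppressor of the loss of the THO subunit Hpr1. The normalized counts were 769, 984 and 935 in wild-type and 494, 502 and 465 in *dbp2Δ*. Every *dbp2Δ* library was below every wild-type library. The log2 fold change was -0.88 (SE 0.12, adjusted p = 0.0022, edgeR), a level that fell by 45.7%. It was called in all 6 fits that left out 1 library, between -0.98 and -0.82. A non-coding transcript is annotated across the whole gene on the other strand. The sources used here do not give whether the counting used strand, and without strand the reads of both cannot be told apart.

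The mRNA export genes were not called in the edgeR fit with all libraries. *YRA1* encodes an adaptor that hands mRNA to the export receptor, and it is known to limit its own expression through its intron. It had 5095, 5134 and 4559 normalized counts in wild-type and 6107, 6103 and 5820 in *dbp2Δ*, with no overlap between strains, and a log2 fold change of 0.29 (SE 0.12, adjusted p = 0.095, edgeR), but was called with DESeq2 (adjusted p = 0.036) and under upper quartile scaling (adjusted p = 0.039, edgeR). *MTR2*, the small subunit of the export receptor, did not overlap either, at 964, 1205 and 1128 in wild-type against 836, 955 and 834 in *dbp2Δ* (log2 fold change -0.33, SE 0.12, adjusted p = 0.060, edgeR). Both lay just outside the threshold in that fit. *MEX67*, the large subunit, had 2531, 2695 and 1707 in wild-type and 2256, 2280 and 2124 in *dbp2Δ*, all *dbp2Δ* values falling inside the wild-type range. *NAB2*, the nuclear poly(A)-binding protein, spread most among the wild-type libraries (coefficient of variation 31.8%), at 4216, 5387 and 2767 counts against 3536, 3012 and 3190 in *dbp2Δ*. Its log2 fold change of -0.35 (SE 0.23) moved to -0.57 (adjusted p = 0.0091, edgeR) without wild-type replicate 3.

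The intron of *YRA1* is unusual for yeast in its length, 766 bp or 52.9% of the gene, while *HPC2* holds one of 84 bp. The splice signals of *YRA1* (IV:1236843-1237608, plus strand, R64) are shown because that gene had the highest level per coding length of the set. Capitals mark the 5′ splice site, the branch point motif and the 3′ splice site.
YRA1 5′ splice site: tgctgtaagaGTATGTtaatacgtgaaatg
YRA1 branch point: tagagatatatGACTAACtttttttttttt
YRA1 3′ splice site: cttttttttttttattaTAGgaattttttg
The sources used here do not give whether reads in introns were counted.

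In the THO complex, none of the 5 genes was called, and 3 of 5 had positive log2 fold changes, as *THP2* and *TEX1* also did when scaled by library size or upper quartile. *THO2* and *HPR1*, the largest subunits by coding length, lay above wild-type in every *dbp2Δ* library. *THO2* had 2958, 2768 and 2538 normalized counts in wild-type against 3209, 3409 and 3241 in *dbp2Δ*, with a log2 fold change of 0.25 (95% interval -0.02 to 0.53, adjusted p = 0.12, edgeR). *HPR1* had 1104, 1119 and 945 in wild-type and 1254, 1193 and 1176 in *dbp2Δ* (log2 fold change 0.19, 95% interval -0.05 to 0.44). *MFT1*, *THP2* and *TEX1* overlapped between strains, with log2 fold changes from -0.04 to 0.15. Intervals here are the estimate and 2.32 standard errors to each side, from the degrees of freedom of the edgeR test, unadjusted.

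**Figure D2:**
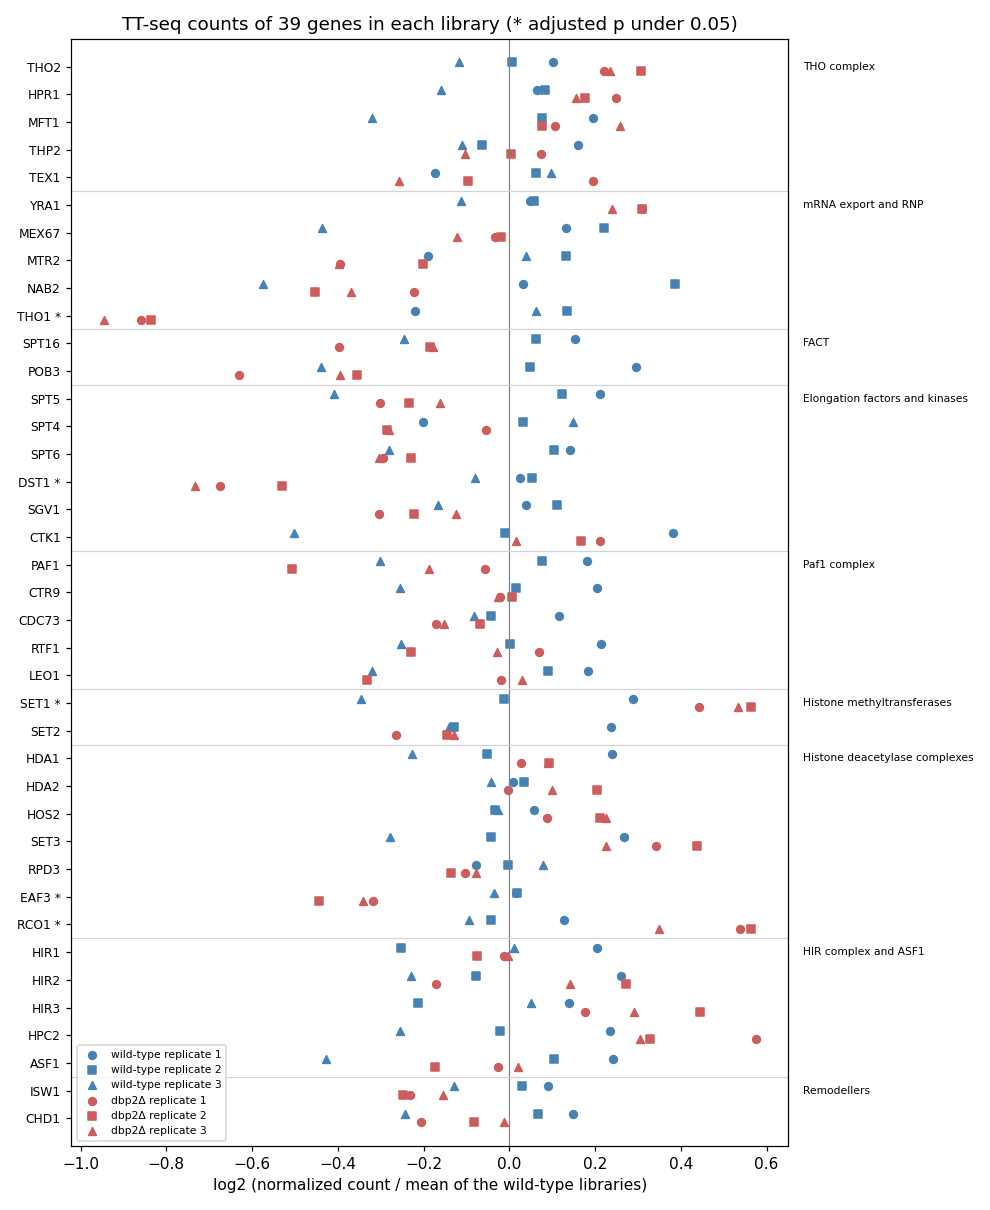
Normalized count of each of the 39 genes in each library, on a log2 scale relative to the mean of the 3 wild-type libraries (blue, wild-type; red, *dbp2Δ*; symbol, replicate), grouped by complex, with an asterisk at the 5 called genes. The *dbp2Δ* points of *THO1* lie furthest to the left, and wild-type replicate 3 (blue triangles) is the lowest wild-type library for 31 of the 39 genes.

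Among elongation factors and kinases, *DST1* alone was called with all libraries. *DST1* encodes TFIIS, which helps a backtracked polymerase cut its RNA and go on. It had 1906, 1944 and 1775 normalized counts in wild-type and 1174, 1299 and 1127 in *dbp2Δ*, a log2 fold change of -0.64 (SE 0.11, adjusted p = 0.0039, edgeR) or a level that fell by 36.0%. All *dbp2Δ* libraries were below all wild-type libraries, and the gene was called in all 6 fits without 1 library. *THO1* and *DST1* were the only members so called in every such fit.

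*SPT6*, whose protein is a histone chaperone bound to the elongating polymerase, had 6299, 6144 and 4702 normalized counts in wild-type and 4663, 4879 and 4630 in *dbp2Δ*. Wild-type replicate 3 lay among the *dbp2Δ* values, and the log2 fold change was -0.27 (SE 0.15, adjusted p = 0.17, edgeR). Without that library it was -0.40 (adjusted p = 0.0099, edgeR). *SPT5*, the polymerase-bound partner of *SPT4*, had 4510, 4241 and 2932 in wild-type against 3159, 3311 and 3484 in *dbp2Δ*, and its log2 fold change went from -0.23 to -0.40 when the same library was left out (adjusted p = 0.012, edgeR). *SPT4* had 333, 392 and 425 in wild-type against 369, 315 and 316 in *dbp2Δ*, with no call in either fit. The kinase gene *SGV1*, also named *BUR1*, which acts early in elongation, had 1978, 2080 and 1715 in wild-type against 1558, 1648 and 1766 in *dbp2Δ* (log2 fold change -0.22, SE 0.12, adjusted p = 0.19, edgeR). *CTK1*, the catalytic subunit of the kinase for the polymerase tail, had 1200, 915 and 650 in wild-type, a span that held all 3 *dbp2Δ* values of 1067, 1035 and 932.

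Both FACT genes were lower without wild-type replicate 3 and neither was called with it. FACT is the dimer of Spt16 and Pob3 that loosens and rebuilds nucleosomes around the polymerase. *SPT16* had 5814, 5456 and 4408 normalized counts in wild-type and 3969, 4600 and 4620 in *dbp2Δ*, with a log2 fold change of -0.25 (SE 0.15, adjusted p = 0.22, edgeR). *POB3* had 2460, 2074 and 1479 in wild-type and 1294, 1568 and 1523 in *dbp2Δ*, and -0.46 (SE 0.19, adjusted p = 0.093). In both, replicate 3 was the wild-type library closest to *dbp2Δ*. Without it the values were -0.36 (adjusted p = 0.026) and -0.63 (adjusted p = 0.0039), both from edgeR.

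None of the 5 Paf1 complex genes was called in either fit. All 5 log2 fold changes were negative, from -0.24 for *PAF1* to -0.01 for *CTR9*, though those of *CTR9* and *RTF1* turned positive when scaled by library size or upper quartile, and wild-type replicate 3 was the lowest wild-type library for all 5. *CTR9*, the scaffold of the complex, had 4267, 3745 and 3103 normalized counts in wild-type and 3647, 3718 and 3636 in *dbp2Δ*, a spread in *dbp2Δ* of 1.21% of the mean. *RTF1*, *CDC73* and *LEO1* overlapped between strains, with log2 fold changes of -0.06, -0.13 and -0.10.

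The histone methyltransferase genes were split. *SET1* encodes the catalytic subunit of COMPASS, which methylates histone H3 near the starts of active genes. It had 2308, 1871 and 1487 normalized counts in wild-type and 2567, 2791 and 2736 in *dbp2Δ*, a log2 fold change of 0.51 (SE 0.17, adjusted p = 0.044, edgeR). The strains did not overlap, yet the call held in only 2 of 6 fits without 1 library. These were the fits without wild-type replicate 1 (adjusted p = 0.0096) and replicate 3 (adjusted p = 0.033), and the other 4 gave adjusted p from 0.095 to 0.13 (edgeR). A non-coding transcript annotated on the other strand covers 50.0% of *SET1* and had 57.0% to 61.8% of its counts. Without strand the reads of both cannot be told apart over that part. *SET2*, whose product methylates histone H3 in gene bodies, had 2118, 1642 and 1629 in wild-type against 1496, 1625 and 1644 in *dbp2Δ*, with the strains overlapping (log2 fold change -0.18, SE 0.14).

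Histone deacetylase subunits held one gene in each direction, both of the small Rpd3 complex, Rpd3S, which Set2 marks direct to gene bodies. *RCO1* encodes a subunit particular to Rpd3S with PHD fingers. It had 742, 659 and 636 normalized counts in wild-type and 986, 1004 and 865 in *dbp2Δ*, a log2 fold change of 0.49 (SE 0.11, adjusted p = 0.012, edgeR). *EAF3* (YPR023C) encodes a chromodomain subunit that Rpd3S shares with the acetyltransferase complex NuA4. It had 988, 990 and 953 in wild-type and 783, 718 and 771 in *dbp2Δ*, a log2 fold change of -0.37 (SE 0.09, adjusted p = 0.016, edgeR). Both genes separated the strains. *RCO1* was called in 4 of the 6 fits without 1 library and *EAF3* in 3, the exceptions all being fits without a *dbp2Δ* library, with adjusted p of at most 0.059 and 0.083. *EAF3* was also not called when scaled by library size alone (adjusted p = 0.060, edgeR).

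The level of *RCO1* relative to *EAF3*, as log2 of the ratio of their normalized counts, was -0.41, -0.59 and -0.58 in wild-type and 0.33, 0.48 and 0.17 in *dbp2Δ*. *RCO1* was thus counted below *EAF3* in every wild-type library and above it in every *dbp2Δ* library. These counts are not divided by length, and the *RCO1* coding sequence is longer, 2055 bp against 1206 bp. Per kb of coding sequence *RCO1* stayed below *EAF3* in every library, at 480, 489 and 421 against 649, 595 and 639 in *dbp2Δ*. The difference was 0.85 (SE 0.11), and the two-sided exact permutation p was 0.1, the smallest that 3 against 3 libraries can give (0.53 after adjustment over 8 pairs). Both genes were already called in opposite directions, so the difference in their ratio is no separate result. For the other 7 pairs of partner subunits the strains overlapped, with differences from -0.29 for *MTR2*/*MEX67* to 0.11 for *HIR2*/*HIR1*. *HPR1*/*THO2* differed by -0.06 (SE 0.06) and *POB3*/*SPT16* by -0.19 (SE 0.10).

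*RPD3*, the catalytic subunit of Rpd3S, had 1189, 1252 and 1324 normalized counts in wild-type and 1169, 1143 and 1190 in *dbp2Δ* (log2 fold change -0.11, 95% interval -0.32 to 0.11). *HDA1*, the catalytic subunit of another deacetylase complex, had 1752, 1430 and 1268 in wild-type against 1511, 1580 and 1578 in *dbp2Δ* (log2 fold change 0.07, SE 0.14, adjusted p = 0.70, edgeR). The *dbp2Δ* values lay inside the wild-type range, and *HDA2* had a log2 fold change of 0.10. In the Set3 complex, the deacetylase gene *HOS2* lay above wild-type in every *dbp2Δ* library, at 867, 945 and 954 against 849, 798 and 801, without passing the test (log2 fold change 0.18, SE 0.09, adjusted p = 0.16, edgeR). *SET3* had a log2 fold change of 0.34 (SE 0.15) with overlapping strains.

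The histone supply genes were not called. The HIR complex places histones outside replication and represses histone genes, and Asf1 hands histones to it. *HPC2* came nearest, with 670, 561 and 477 normalized counts in wild-type and 848, 715 and 704 in *dbp2Δ* (log2 fold change 0.41, SE 0.15, adjusted p = 0.063, edgeR). *HIR3* had 1816, 1424 and 1709 in wild-type and 1864, 2245 and 2018 in *dbp2Δ* (log2 fold change 0.31, SE 0.14, adjusted p = 0.11, edgeR). In both the strains were separate. *HIR2* overlapped, at 1197, 946 and 852 against 886, 1207 and 1102 (log2 fold change 0.09, SE 0.17, adjusted p = 0.67, edgeR), and *HIR1* and *ASF1* had log2 fold changes of -0.03 and -0.06.

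Of the remodellers, which space nucleosomes over genes, *ISW1* had 2731, 2621 and 2347 normalized counts in wild-type and 2185, 2161 and 2304 in *dbp2Δ*. The strains were separate by a small margin, and the log2 fold change was -0.21 (SE 0.12, adjusted p = 0.18, edgeR). *CHD1* had 4327, 4091 and 3300 against 3388, 3686 and 3874 and overlapped (log2 fold change -0.10, SE 0.14).

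Wild-type replicate 3 moved with these results more than with the table as a whole. It was the lowest wild-type library for 31 of the 39 genes (79.5%) and for 2422 of 5943 genes (40.8%). Its median log2 ratio to the mean of the other wild-type libraries was -0.24 over the set and -0.03 over all genes. The 39 genes made up 0.598% of its counts, against 0.698% and 0.802% in the other wild-type libraries and 0.693% to 0.719% in *dbp2Δ*. Without it, 2 genes were higher and 10 lower in *dbp2Δ*, where 51.8% of 5952 genes tested were called. *RCO1* and *SET1* were still higher and *THO1*, *DST1* and *EAF3* still lower, and the genes added were *NAB2*, *SPT16*, *POB3*, *SPT5*, *SPT6*, *SGV1* and *ISW1*, all lower. The last 2 were near the threshold, at adjusted p of 0.043 for *SGV1* and 0.046 for *ISW1* (edgeR). The set's median log2 fold change was then -0.13, beside -0.01 for all genes. The spread among libraries was larger in wild-type than in *dbp2Δ* for 34 of the 39 genes, and for 4497 of all 5943 genes. The median coefficient of variation was 14.0% against 6.72%, beside 15.1% against 8.16% over all genes.

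Levels between genes were compared as normalized counts per kb of coding sequence. *YRA1* was highest, at 7238 ± 471 in wild-type and 8825 ± 242 in *dbp2Δ* (SD, n = 3 libraries each), above every library of every other gene on this scale, which leaves the intron out of the length. Per kb of the whole gene, intron included, *YRA1* lay between 3151 and 3548 in wild-type and overlapped *NAB2*, whose highest library had 3414. *NAB2* (2613 ± 832), *DST1* (2016 ± 95.4) and *MTR2* (1980 ± 222) followed in wild-type and did not differ beyond their spread. At the other end were *TEX1*, at 259 ± 25.7, and *HPC2*, at 303 ± 51.5. In *dbp2Δ*, *DST1* had 1291 ± 95.6, below *MTR2* at 1577 ± 125. The counts of the export receptor subunits were not level with each other, *MTR2* exceeding *MEX67* (1284 ± 294) in wild-type. A transcript annotated on the other strand covers the whole of *MTR2* and had 102% to 105% of its counts. Reads of both cannot be told apart without strand, so the *MTR2* levels given here can hold RNA of either strand.
Complexes differed in how even their subunits were. *SPT5* and *SPT4* had 1220 ± 265 and 1240 ± 150 per kb in wild-type, within each other's spread. *SPT6*, a factor apart from that pair, had 1312 ± 202. The 4 HIR genes lay between 303 and 380. The FACT genes *SPT16* and *POB3* had 1681 ± 235 and 1208 ± 298, and the Paf1 complex genes lay between 742 and 1175. The THO genes lay between 259 and 575, with *THO2* highest. Within Rpd3S, *RPD3* had 964 ± 51.9, *EAF3* 810 ± 17.4 and *RCO1* 330 ± 27.2 in wild-type, where *RPD3* is also a subunit of a larger complex. In *dbp2Δ* these were 896 ± 18.1, 628 ± 28.9 and 463 ± 36.7.

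**Figure D3:**
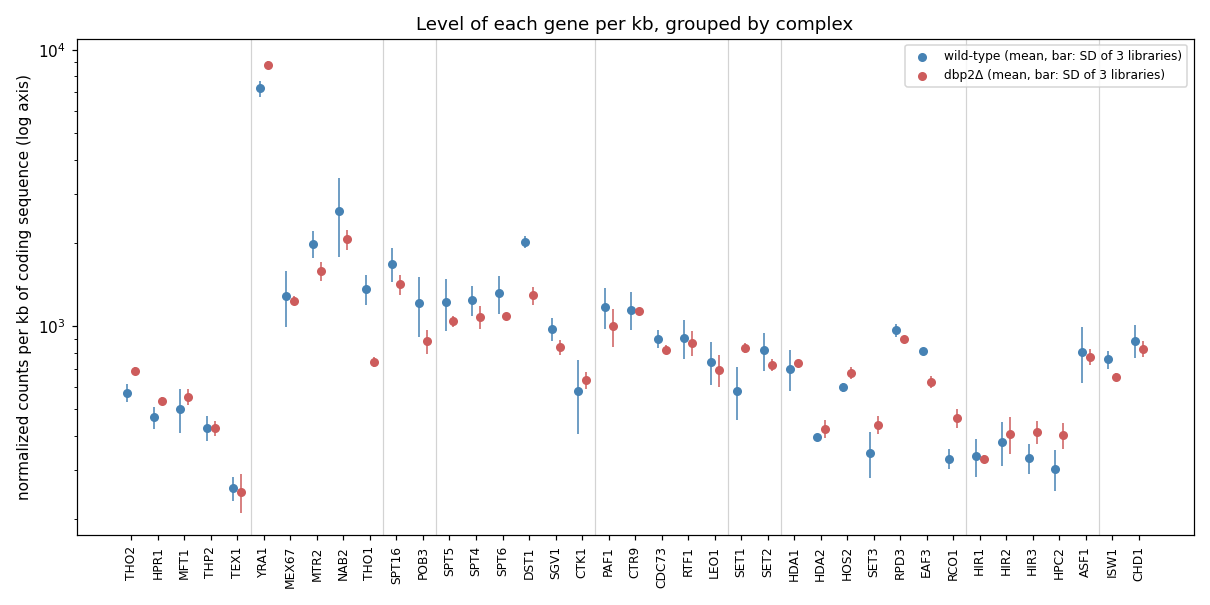
Normalized counts per kb of coding sequence on a log axis for each of the 39 genes, grouped by complex, as the mean of 3 libraries with the SD (blue, wild-type; red, *dbp2Δ*). *YRA1* stands highest at 7238 in wild-type and *TEX1* lowest at 259, and *RCO1* and *EAF3* are closer in *dbp2Δ* than in wild-type.

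A list of 79 further genes of the same machinery was also read from the table. All 79 were tested, 9 were higher and 14 lower in *dbp2Δ*, a share of 29.1% beside the 42.0% of all genes. Of 12 RNA polymerase II subunit genes, *RPB10* was higher (690 ± 63.8 to 1100 ± 181 normalized counts, SD, n = 3; log2 fold change 0.67) and *RPB3* lower (log2 fold change -0.49, called in 3 of 6 fits without 1 library). Of 14 other export genes, 3 were lower, led by *YRA2*, a paralog of *YRA1* (log2 fold change -0.77), and *SUB2*, the DEAD-box ATPase of the TREX complex (5462 ± 452 to 3739 ± 303, log2 fold change -0.55, called in 4 of 6 such fits).
The list of 10 other elongation factors, kinase subunits and histone H2B ubiquitylation genes had 4 higher and 2 lower. *BUR2*, the cyclin of the kinase that *SGV1* encodes, was at 713 ± 102 normalized counts in wild-type and 1414 ± 94.7 in *dbp2Δ* (log2 fold change 0.99, SE 0.13, adjusted p = 0.0017, edgeR), and the ubiquitin protease gene *UBP10* had a log2 fold change of 0.77. Of 24 further genes, *DOT1* and partners of the Set1, Set3 and Rpd3 complexes, 3 were higher and 5 lower. The largest were *CPR1*, an abundant cyclophilin that is also a Set3 complex subunit, which went from 5296 ± 1848 to 1424 ± 83.6 (log2 fold change -1.89), and *PHO23* of the large Rpd3 complex (log2 fold change -1.09). Of 19 other remodellers and histone chaperones, 1 was higher and 3 lower, among them the chaperone genes *VPS75* (log2 fold change -0.81) and *NAP1* (log2 fold change -0.77).

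The second table counts non-coding transcripts annotated opposite genes, and 9 of the 39 genes had one: *MFT1*, *MTR2*, *THO1*, *SPT4*, *LEO1*, *SET1*, *EAF3*, *HPC2* and *CHD1*, with 2 each for *MTR2* and *HPC2*. For the transcripts that lie largely inside their gene, the counts were close to those of the gene in proportion to the part of the gene covered. The *THO1* transcript covers the whole gene and had 113% to 134% of its counts, the shorter one of *MTR2* also covers the whole gene and had 102% to 105%, and those of *SET1* and *LEO1* cover 50.0% and 50.6% and had 57.0% to 61.8% and 47.1% to 53.5%. Over the whole table, transcripts lying wholly inside a gene with at least 100 counts had a median of 1.34 times the gene's counts per base (quartiles 1.19 and 1.55, 558 transcripts), and 89.1% were within 2-fold of it. Those covering a whole gene with at least 100 counts had a median of 0.965 times (quartiles 0.765 and 1.37, 383 transcripts). For transcripts that overlap their gene this far, the deposited counts of both strands cannot be told apart. For the others, whether the counts hold a single strand is not given.

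**Figure D4:**
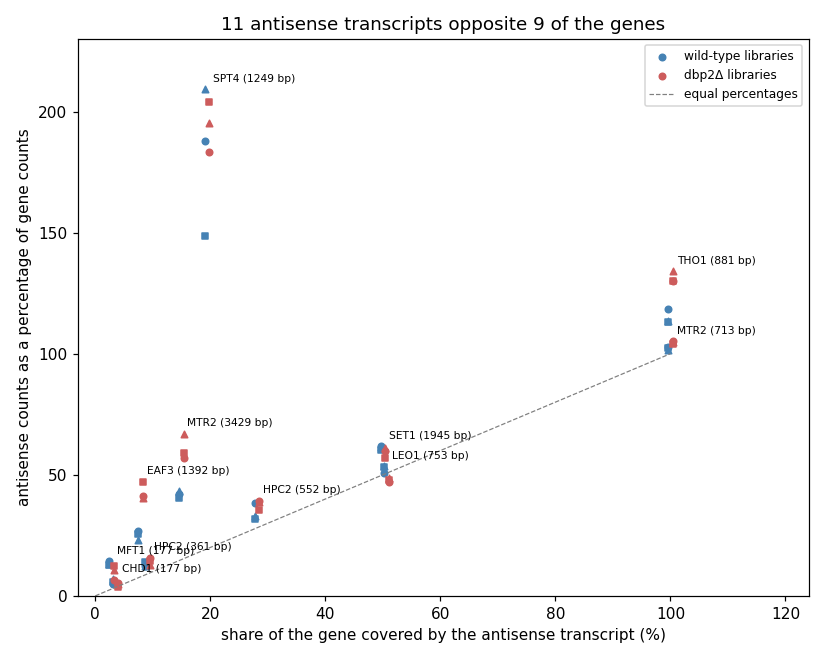
Counts of each of 11 transcripts opposite 9 of the genes, as a percentage of the gene's own counts in the same library, against the share of the gene that the transcript covers (blue, wild-type libraries; red, *dbp2Δ* libraries; dashed line, equal percentages). *THO1*, *SET1*, *LEO1* and *HPC2* lie near the line, while the transcripts that lie mostly outside their gene, those of *SPT4*, *EAF3*, *MFT1* and the longer of *MTR2*, lie above it.

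Of the longest transcript of each of these 9 genes, 2 were called different between the strains, where 43.5% of 1513 transcripts tested were. The *THO1* transcript had a log2 fold change of -0.68 (SE 0.13, adjusted p = 0.0051, edgeR), in the direction of the gene. It covers the whole gene, so these counts and the gene's cannot be told apart. The shared direction is thus no separate result, and the same limit holds for the *THO1* ratio below. The *EAF3* transcript, of which 6.82% lies in the gene, had a log2 fold change of 0.40 (SE 0.12, adjusted p = 0.028, edgeR), opposite to the gene. It was called in 2 of 6 fits without 1 library, where that of *THO1* was called in all 6. Most of the *EAF3* transcript lies past the end of the gene, and without strand its counts can hold RNA of either strand there. The ratio of transcript to gene counts, which was called for 14.3% of 1576 pairs, was higher in *dbp2Δ* for *EAF3* (0.77 on the log2 scale, SE 0.09, adjusted p = 0.0039), *MTR2* (0.54, SE 0.07, adjusted p = 0.0068) and *THO1* (0.19, SE 0.04, adjusted p = 0.027), from an edgeR interaction test chosen after the data were seen. The *THO1* ratio was called in 1 of 6 fits without 1 library and the other 2 in all 6. For *MTR2* neither the transcript (log2 fold change 0.21, adjusted p = 0.23, edgeR) nor the gene (-0.33) was called by itself. The *MTR2* transcript of 3429 bp shares 62.4% of its length with another gene, *FAT3*, and that of *SPT4* 76.1% with *COX18*, so their counts can hold reads of those genes. The log2 fold changes of *FAT3* (-0.68) and *COX18* (-0.20) were both negative and not called. Their part in these counts was not tested.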

How the data were processed

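TT-seq counts of 3 wild-type and 3 *dbp2Δ* libraries, described in the methods as biological replicates, were used as deposited. The authors' tables hold raw counts of 7032 genes and of predicted non-coding transcripts opposite genes. Per the submitters' notes, featureCounts and edgeR were used with build R64, no tool version being stated. Which aligner was used, and whether reads were counted by strand, was not given in the sources used here. From the gene counts, 4 lines without a name were left out, and some items are not reported here. Symbols and sequences came from the R64 RefSeq reference.

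Counts were scaled by TMM, filtered with filterByExpr and tested with glmQLFit and glmQLFTest of edgeR 4.0.16 (R 4.3.3), with strain as the only factor and p-values adjusted over all genes. Transcript counts were scaled by the gene libraries. Alternatives were DESeq2 1.42.0, other scalings, no filter, a replicate block, a threshold of 0.01 and each library left out. Procedures were tested on simulated data. Partner pairs used a two-sided exact permutation test. Normalized counts are TMM-scaled to the mean library. Members had at least 239 counts in every library. All 39 genes were to be accounted for, with full statistics for called members, *THO1*, *SPT6*, *HDA1*, *HIR2* and *SGV1*, and for each related list the 2 called genes with the largest change. The members, lists and rules were chosen with earlier results of these data known. Figures were drawn with matplotlib 3.10.9 in Python 3.11.15.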

Additional observations from a re-analysis of the deposited data

How the results depend on the processing

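The 3 genes lower and 2 higher in *dbp2Δ* became 3 and 5 under upper quartile scaling, with *THO2*, *YRA1* and *HPC2* added and 4 opposite-strand transcripts called. *EAF3* was not called under library size alone (adjusted p = 0.060, edgeR). At an adjusted p under 0.01, 0 members were higher, and 1194 genes, 1 such transcript and 12 related genes were called. The median log2 fold change of the set moved to 0.0207 under library size alone and to 0.0105 under upper quartile scaling. Some genes near 0 changed sign. *THP2* did so under DESeq2 (0.00403). Under library size alone the values were 0.0718 for *THP2*, 0.0444 for *TEX1*, 0.0245 for *MEX67*, 0.0625 for *CTR9*, 0.0192 for *RTF1*, 0.0439 for *HIR1* and 0.0207 for *ASF1*, and under upper quartile scaling 0.0571, 0.0205, 0.0107, 0.0504, 0.00766, 0.0309 and 0.0105 in the same order. The cause was not tested.

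With each library left out in turn, members higher ranged from 0 to 4, members lower from 2 to 10, all genes called from 1430 to 3082, related genes from 12 to 30 and opposite-strand transcripts from 1 to 4, and the median from -0.129 to 0.0128. Signs also changed for *THP2* (-0.0609 to 0.0803), *TEX1* (-0.175 to 0.0479), *MEX67* (-0.237 to 0.0619), *CTK1* (-0.0658 to 0.370), *CTR9* (-0.129 to 0.0989), *RTF1* (-0.171 to 0.0623), *LEO1* (-0.236 to 0.00588), *HDA1* (-0.0333 to 0.206), *HIR1* (-0.147 to 0.0845), *HIR2* (-0.0101 to 0.244) and *ASF1* (-0.233 to 0.0813), none of them called. The partner ratios that changed sign were *SPT4*/*SPT5* (-0.207 to 0.278), *HDA2*/*HDA1* (-0.104 to 0.103) and *HIR2*/*HIR1* (-0.00420 to 0.249).

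Same-numbered libraries of the 2 strains did not deviate together (correlations -0.0836, -0.140 and 0.00066), so no shared effect of the replicate number was seen. These values cannot settle whether same-numbered cultures were handled together. With the replicate block *SET1* (adjusted p = 0.067) and *EAF3* (adjusted p = 0.058) were not called, *HPC2* was (adjusted p = 0.049, edgeR), so that 2 members were higher and 2 lower, and the median was -0.0484.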

Other observations

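The kinase subunits that accompany *SGV1* and *CTK1* had values of their own. *BUR2*, the cyclin partner of the *SGV1* kinase, was higher in *dbp2Δ*, whereas *SGV1* was not called (log2 fold change -0.22). *CTK2* and *CTK3*, the partners of *CTK1*, had log2 fold changes of 0.47 (SE 0.16, adjusted p = 0.046, edgeR) and 0.45 (SE 0.11, adjusted p = 0.014, edgeR), beside 0.13 (SE 0.21) for *CTK1*. *CTK2* was called in 1 of 6 fits without 1 library (adjusted p = 0.060 without wild-type replicate 3, edgeR) and *CTK3* in 4. *CTK3* had 366, 354 and 339 normalized counts in wild-type and 494, 458 and 493 in *dbp2Δ*. The difference between a kinase gene and its partners was not tested.

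In the Set3 complex, *HST1*, a sirtuin gene, had 1757, 1728 and 1714 normalized counts in wild-type and 2792, 2629 and 2520 in *dbp2Δ* (log2 fold change 0.61), and *SIF2* had 1140, 917 and 1070 against 668, 743 and 733 (log2 fold change -0.54). Both separated the strains. *SIN3*, the scaffold that Rpd3S shares with the large Rpd3 complex, had a log2 fold change of -0.48 (SE 0.16, adjusted p = 0.043, edgeR), with a call in 1 of 6 fits without 1 library and none when scaled by library size alone (adjusted p = 0.085) or by upper quartile (adjusted p = 0.052).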
